A study of Mus musculus with 24 samples.

Results

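CFP1 peaks of CCR6+ group 3 innate lymphoid cells (ILC3s) were compared between knockout (KO) and control (WT) mice. The 4 libraries whose titles name CCR6+ ILC3s and anti-CFP1 were taken, 2 KO and 2 WT, of 24 libraries in the series. WT mice are labelled Cxxc1flox/flox and KO mice carry the same floxed alleles with a Cre recombinase, so the floxed Cxxc1 alleles are common to both groups and the Cre is what the KO adds. Mice were 6-8 weeks-old by the sample labels, although the protocol text also speaks of aged animals, and cells came from the lamina propria of the small intestine. Chromatin was profiled in situ on 100000 cells per library with a Cxxc1 antibody, and the authors deposited a list of called peaks for each library. The other CFP1 libraries came from the NKp46+ and double-negative (DN) ILC3 subsets, and H3K4me3 libraries were made for all 3 subsets. The activity of the Cre is not confined to ILC3s. The labels do not say whether replicates were separate animals or pools, so differences between replicates may be technical.

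CFP1, the product of Cxxc1, carries a CXXC zinc finger that binds unmethylated CpG dinucleotides, and it is a subunit of the SET1 complexes that trimethylate lysine 4 of histone H3 (H3K4me3) at active promoters. CpG-rich promoters of widely expressed genes are its best known sites. CCR6+ ILC3s are the lymphoid tissue inducer-like ILC3s, which make IL-22, IL-17 and lymphotoxin.

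A peak list says where signal passed the peak caller's threshold. A site without a peak is one where none was called, which does not show that CFP1 was absent, and the read depth behind the lists is unknown. Each peak has a fold enrichment given by the authors' peak caller, used to order the peaks inside one list and, in an alternative, to set a minimum, where place 1 is the highest. A gene was counted as having CFP1 when a peak overlapped the 1000 b on either side of an annotated start. Among 21631 protein-coding genes, 2413 (11.2%) had CFP1 in both WT lists and in neither KO list. A further 1192 (5.51%) had it in both WT lists and 1 KO list, and 492 (2.27%) had it in all 4 lists.

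Promoter sequences of 9 genes are shown, as examples of starts with and without CFP1. Each is the RefSeq sequence (GRCm38.p6, the assembly of mm10) from 250 b before to 50 b after the start, written 5′ to 3′ along the gene, with every CpG in capitals. The first set had CFP1 in both WT lists and neither KO list: Ubxn2a (chr12:4907504-4907803, minus strand, 56 CpG), Mios (chr6:8208977-8209276, plus strand, 27 CpG) and Zfp868 (chr8:69625499-69625798, minus strand, 6 CpG).
Ubxn2a: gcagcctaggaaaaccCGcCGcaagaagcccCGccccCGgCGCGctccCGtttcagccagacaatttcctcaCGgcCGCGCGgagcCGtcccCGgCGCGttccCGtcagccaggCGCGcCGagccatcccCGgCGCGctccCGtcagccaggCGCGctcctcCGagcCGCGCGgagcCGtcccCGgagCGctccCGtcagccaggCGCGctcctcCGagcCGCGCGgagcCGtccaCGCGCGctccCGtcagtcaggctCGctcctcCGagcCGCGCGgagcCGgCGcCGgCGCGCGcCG
Mios: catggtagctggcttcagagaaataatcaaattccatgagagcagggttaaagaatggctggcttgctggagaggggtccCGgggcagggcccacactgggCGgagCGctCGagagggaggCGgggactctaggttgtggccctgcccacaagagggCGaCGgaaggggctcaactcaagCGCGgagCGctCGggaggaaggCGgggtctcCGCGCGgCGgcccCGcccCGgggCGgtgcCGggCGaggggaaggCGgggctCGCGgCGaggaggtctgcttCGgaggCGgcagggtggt
Zfp868: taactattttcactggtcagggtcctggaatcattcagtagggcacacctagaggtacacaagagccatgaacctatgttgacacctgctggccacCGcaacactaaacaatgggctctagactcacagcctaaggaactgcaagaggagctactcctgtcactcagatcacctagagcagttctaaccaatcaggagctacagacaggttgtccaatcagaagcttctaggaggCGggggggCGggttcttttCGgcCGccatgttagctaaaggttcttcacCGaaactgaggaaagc

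The second set had CFP1 in all 4 lists: H2az2 (chr11:6444394-6444693, minus strand, 27 CpG), Azi2 (chr9:118040272-118040571, plus strand, 36 CpG) and Zfp869 (chr8:69716853-69717152, minus strand, 8 CpG). Zfp868 and Zfp869 are zinc finger genes close to each other on chromosome 8, and the pair is shown because both starts ranked high for CFP1 with few CpG at the start nearest the peak. A second annotated start of Zfp868 has 29 CpG.
H2az2: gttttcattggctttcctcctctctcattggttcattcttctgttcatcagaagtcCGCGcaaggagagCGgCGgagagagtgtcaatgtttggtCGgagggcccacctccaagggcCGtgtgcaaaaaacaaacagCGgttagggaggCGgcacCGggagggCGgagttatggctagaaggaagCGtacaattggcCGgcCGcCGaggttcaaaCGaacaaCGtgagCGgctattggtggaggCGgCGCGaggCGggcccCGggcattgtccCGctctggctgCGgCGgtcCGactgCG
Azi2: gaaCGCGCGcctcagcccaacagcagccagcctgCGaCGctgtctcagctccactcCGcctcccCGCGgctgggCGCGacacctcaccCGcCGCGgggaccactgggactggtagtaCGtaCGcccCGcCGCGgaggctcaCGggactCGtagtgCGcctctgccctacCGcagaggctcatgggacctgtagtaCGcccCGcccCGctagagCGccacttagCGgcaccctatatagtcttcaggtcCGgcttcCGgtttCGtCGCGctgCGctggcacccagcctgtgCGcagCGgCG
Zfp869: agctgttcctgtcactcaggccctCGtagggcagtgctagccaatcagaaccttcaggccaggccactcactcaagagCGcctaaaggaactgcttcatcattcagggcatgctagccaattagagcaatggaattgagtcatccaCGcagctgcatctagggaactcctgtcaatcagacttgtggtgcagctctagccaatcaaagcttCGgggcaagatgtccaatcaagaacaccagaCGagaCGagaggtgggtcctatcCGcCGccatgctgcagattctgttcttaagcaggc

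The third set carried H3K4me3 in both WT lists and CFP1 at the start in none: Il23r (chr6:67491806-67492105, minus strand, 2 CpG), which encodes the IL-23 receptor of ILC3s, Il2ra (chr2:11642542-11642841, plus strand, 3 CpG), which encodes the alpha chain of the IL-2 receptor, and Cdk4 (chr10:127063285-127063584, plus strand, 22 CpG), which encodes a G1 cyclin-dependent kinase. Cdk4 is near the median of 20 CpG of such genes, while Il23r and Il2ra are at the low end, where 16.1% have under 10 CpG. Both receptor genes had a CFP1 peak elsewhere in the gene in WT replicate 2.
Il23r: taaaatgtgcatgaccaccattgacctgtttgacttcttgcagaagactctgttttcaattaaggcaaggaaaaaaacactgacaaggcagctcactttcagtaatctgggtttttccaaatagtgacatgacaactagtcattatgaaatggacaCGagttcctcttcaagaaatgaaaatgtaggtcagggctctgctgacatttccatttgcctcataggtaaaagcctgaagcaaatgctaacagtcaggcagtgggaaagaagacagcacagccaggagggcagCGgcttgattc
Il2ra: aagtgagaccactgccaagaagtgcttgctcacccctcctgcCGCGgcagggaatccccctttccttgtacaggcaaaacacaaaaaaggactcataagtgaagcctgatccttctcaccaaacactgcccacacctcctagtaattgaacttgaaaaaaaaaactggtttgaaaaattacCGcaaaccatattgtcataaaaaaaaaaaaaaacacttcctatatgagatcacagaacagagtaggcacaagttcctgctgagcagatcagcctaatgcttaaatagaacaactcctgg
Cdk4: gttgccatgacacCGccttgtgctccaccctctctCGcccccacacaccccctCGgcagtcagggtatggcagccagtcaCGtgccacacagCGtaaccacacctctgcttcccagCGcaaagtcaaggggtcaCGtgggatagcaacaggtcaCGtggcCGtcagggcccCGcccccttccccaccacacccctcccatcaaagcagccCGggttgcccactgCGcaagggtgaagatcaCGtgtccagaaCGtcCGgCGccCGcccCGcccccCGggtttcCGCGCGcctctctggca

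The gene encoding CFP1 was examined first, as the target of the knockout. At the start of Cxxc1 a CFP1 peak was called in WT replicate 1 (chr18:74216165-74216516, 352 b, place 4093 of 5226) and in none of the other 3 lists. In the NKp46+ and DN subsets, 1 of 4 WT lists and 0 of 4 KO lists had a CFP1 peak there. H3K4me3 was called at the Cxxc1 start in all 4 CCR6+ libraries, with peaks of 977 and 1140 b in WT and 709 and 1258 b in KO. Peak lists do not show whether the floxed exons were removed, so they do not check the deletion itself.

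CFP1 peaks were fewer in both KO libraries than in either WT library. WT replicate 1 had 5226 peaks, WT replicate 2 had 7983, KO replicate 1 had 1312 and KO replicate 2 had 1250. The lists did not overlap in number, and the mean log2 ratio of KO to WT was −2.33 ± 0.31 (SE, 2 libraries against 2), a 5.04-fold lower number. Within replicate 1 the number was 3.98-fold lower and within replicate 2 it was 6.39-fold lower. An exact two-sided permutation test gave p = 0.333, the smallest that 6 arrangements of 2 against 2 libraries allow, so no result of this comparison could pass a threshold of 0.05. In bulk chromatin of sorted cells, fewer cells with CFP1 and less CFP1 per cell cannot be told apart.

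The genome covered by CFP1 peaks was 3.17 and 5.80 Mb in WT and 0.653 and 0.734 Mb in KO, 6.20-fold lower (log2 −2.63 ± 0.44, SE; exact permutation p = 0.333). KO peaks were also narrower at the median, 461 and 528 b against 552 and 654 b in WT (log2 −0.28 ± 0.16, SE; exact permutation p = 0.333). The width groups did not overlap, but the gap between KO replicate 2 and WT replicate 1 was smaller than the gap between replicates of either genotype. The log2 width ratio was −0.16 without WT replicate 2 and −0.19 without KO replicate 1 (exact permutation p = 0.667 each), and −0.54 at equal list length, described below.

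**Figure D1:**
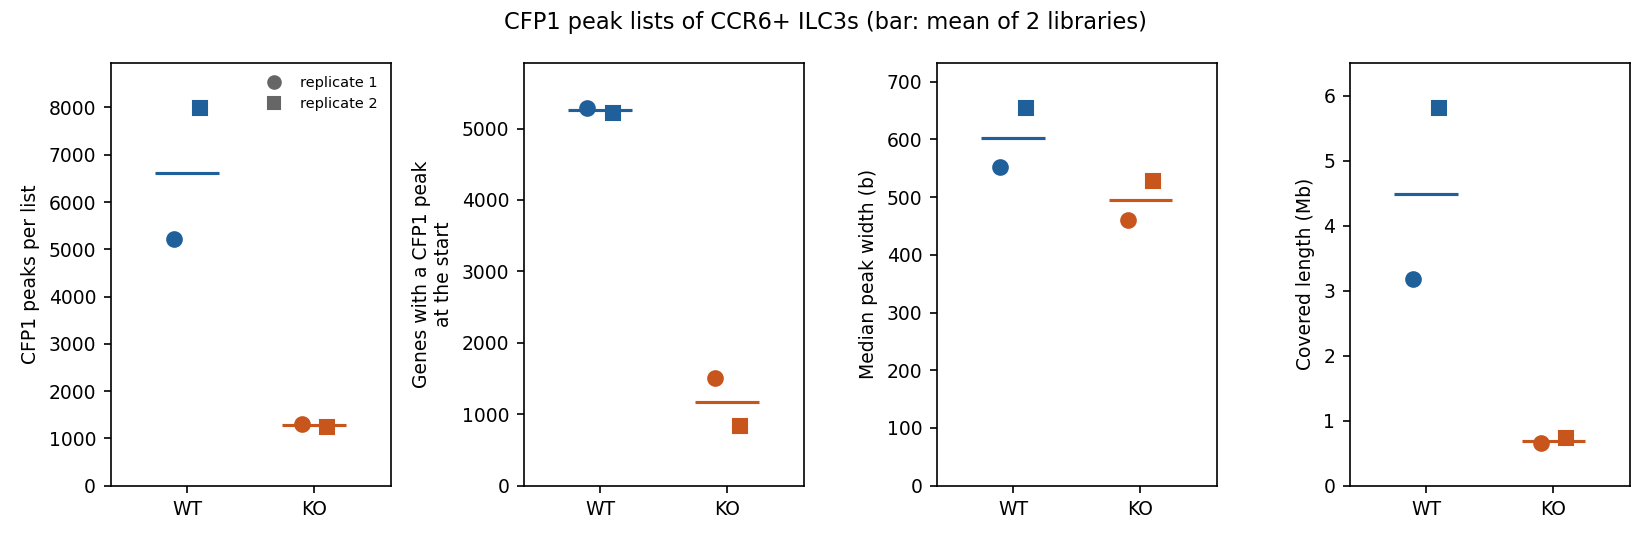
The 4 panels plot, for each CFP1 list of CCR6+ ILC3s, the number of peaks, the number of genes with a peak at the start, the median peak width in bases and the covered length in megabases; circles are replicate 1, squares replicate 2 and horizontal bars the means of 2 libraries. Peak numbers sit at 5226 and 7983 in WT and at 1312 and 1250 in KO.

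Genes with CFP1 at the start numbered 5284 and 5223 in WT and 1504 and 832 in KO, 4.70-fold lower (log2 −2.23 ± 0.43, SE; exact permutation p = 0.333). WT replicates were almost equal in this count, while KO replicate 1 had more genes than KO replicate 2. Both WT lists had CFP1 at 4097 genes (18.9%), and of those 58.9% had it in neither KO list, 29.1% in 1 and 12% in both. Where 1 KO list had it, that list was KO replicate 1 at 886 genes and KO replicate 2 at 306. No gene (0%) had CFP1 in both KO lists and neither WT list, 22 genes had it only in KO replicate 1 and 0 only in KO replicate 2. Within replicate 1, 3837 genes (17.7%) had CFP1 in WT and not KO and 57 the reverse, and within replicate 2 the counts were 4391 (20.3%) and 0. Because one peak can serve neighbouring genes, the 2413 genes of the first pattern stood at 2100 distinct peaks of WT replicate 1, and 25.7% of them shared a peak.

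List length bears on these counts. With every list held to its 1250 peaks of highest fold enrichment, CFP1 stood in both WT and neither KO list at 184 genes and in both KO and neither WT list at 100. How much of the difference in length came from read depth or signal over background was not tested, since the lists carry neither.

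KO peaks lay almost all at positions that also had a WT peak. In KO replicate 1, 94.4% of peaks overlapped a peak of WT replicate 1 by at least 1 b and 93.1% a peak of WT replicate 2, and in KO replicate 2 the shares were 66.8% and 93.8%. Against both WT lists together, 27 peaks of KO replicate 1 and 76 of KO replicate 2 had no WT partner, and the 27 and 76 were among the lower ranked (median rank 27.5 and 28.2 on a scale where 100 is the top of the list). The KO lists, shorter than the WT lists, overlapped each other less: 32.2% of KO replicate 1 peaks met a peak of KO replicate 2, and 33.8% the other way. At 1250 peaks a list the KO replicates shared 32.0%, within the 27.3 to 47.8% between a KO and a WT list. Between WT lists, 77.0% of replicate 1 peaks met a replicate 2 peak and 50.2% the other way.

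Of WT peaks, 23.7% in replicate 1 overlapped a peak of KO replicate 1 and 16.0% a peak of KO replicate 2. For WT replicate 2 the shares were 15.3% and 14.7%. At equal length, with 1250 peaks a list, WT replicate 1 shared 51.0% of its peaks with WT replicate 2, 47.8% with KO replicate 1 and 27.3% with KO replicate 2. In the same lists WT replicate 2 shared 43.2% with KO replicate 1 and 41.8% with KO replicate 2, and the KO replicates shared 32.0%. The top peaks of WT replicate 1 thus met those of KO replicate 1 nearly as often as those of the other WT library.

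**Figure D2:**
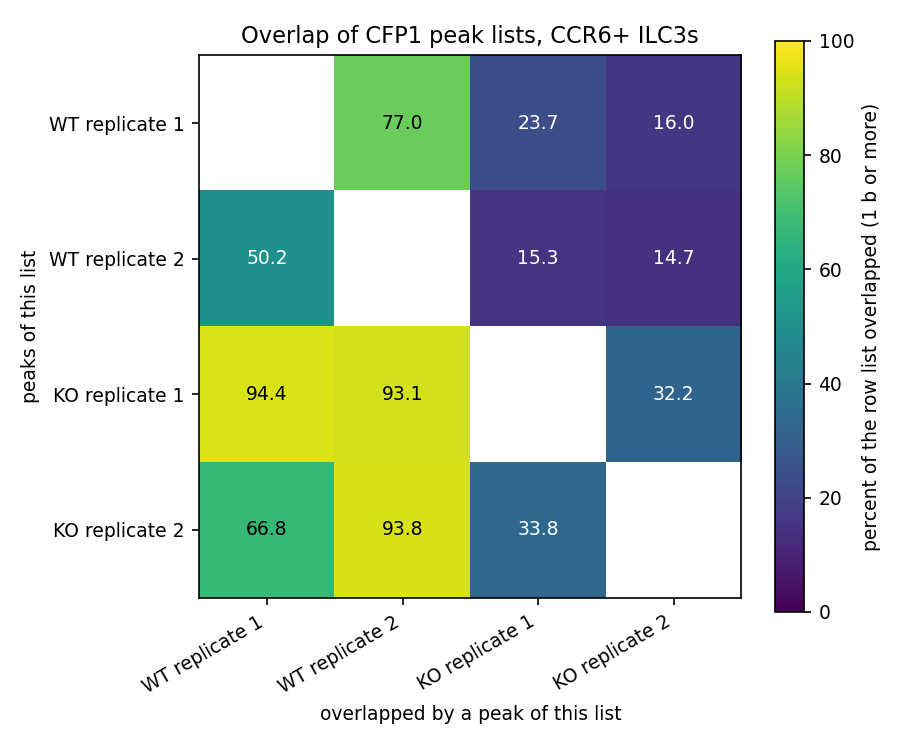
The grid gives the percent of the peaks of the row list that overlap a peak of the column list by 1 b or more, for the 4 CFP1 lists of CCR6+ ILC3s. The KO rows reach 66.8 to 94.4% in the WT columns, while the WT rows reach 14.7 to 23.7% in the KO columns.

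WT peaks that were also called in KO were the stronger and wider ones. With each WT list cut by fold enrichment into 10 equal groups, 4.2% of the lowest group of WT replicate 1 peaks and 58.2% of the highest overlapped a peak of KO replicate 1. Against KO replicate 2 the shares were 9.6% and 30.3%. For WT replicate 2 the lowest and highest groups gave 1.5% and 51.1% against KO replicate 1, and 2.0% and 47.4% against KO replicate 2. Peaks met by either KO list had a median width of 698.5 b in WT replicate 1 and 875 b in WT replicate 2, against 501.5 and 599 b for those met by neither.

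**Figure D3:**
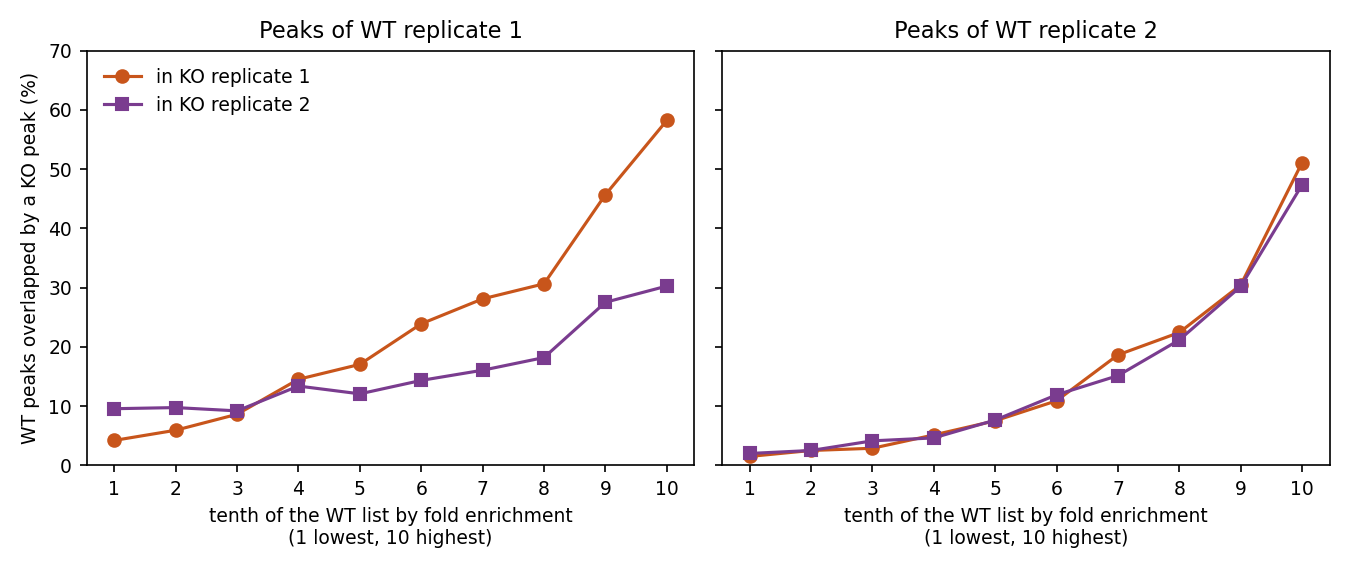
Each point is 1 of 10 equal groups of a WT peak list ordered by the authors' fold enrichment (x axis, 10 is the highest group), and the y axis gives the percent of its peaks overlapped by a peak of KO replicate 1 (circles) or KO replicate 2 (squares). In WT replicate 1 the share against KO replicate 1 goes from 4.2% in the lowest to 58.2% in the highest group.

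The gene patterns followed the same order. Genes with CFP1 in both WT and neither KO list had a median rank of 49.1 in WT replicate 1 and 57.7 in WT replicate 2. With 1 KO list the medians were 68.4 and 77.6, and with all 4 lists 83.7 and 91.0. Median WT peak widths were 556 and 665 b, then 682.5 and 838 b, then 853.5 and 996.5 b. At the 492 genes found in all 4 lists the peak was wider in WT replicate 1 than in KO replicate 1 at 456 (92.7%), and wider in WT replicate 2 than in KO replicate 2 at 488 (99.2%). Median KO widths at these genes were 552.5 and 562 b. Spearman's rho of their ranks, given as a description over 492 genes that are not independent, was 0.570 between WT lists, 0.387 between the lists of replicate 1, 0.563 between those of replicate 2 and 0.317 between KO lists.

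Replicates 1 and 2 differed in where peaks lay, in both genotypes. Peaks within 1000 b of a gene start made up 87.4% of WT replicate 1 and 93.4% of KO replicate 1, but 57.7% of WT replicate 2 and 57.2% of KO replicate 2. The KO share was 2.77 points above the WT share (SE 23.4; exact permutation p = 1.0), 6.06 points higher in replicate 1 and −0.51 points in replicate 2. It turned to −12.1 without WT replicate 2, to −15.4 without KO replicate 1 and to −12.6 at equal list length. Leaving out 1 library unbalances the replicates between genotypes, so those values cannot show a genotype difference in a share that followed the replicate number. The median distance from a peak's summit to the nearest start was 211 b in WT replicate 1, 1459 b in WT replicate 2, 181 b in KO replicate 1 and 1012 b in KO replicate 2.

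Peaks at starts and peaks away from them were both fewer in KO. At starts there were 4567 and 4607 peaks in WT and 1226 and 715 in KO, 4.90-fold lower. Away from starts there were 659 and 3376 in WT and 86 and 535 in KO, 6.95-fold lower, with a wide error (log2 −2.80 ± 1.77, SE), since the replicates of each genotype lay far apart. Of the 659 peaks of WT replicate 1, 334 lay elsewhere in a gene and 325 outside genes, and in KO replicate 2 the 535 were 261 and 274.

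**Figure D4:**
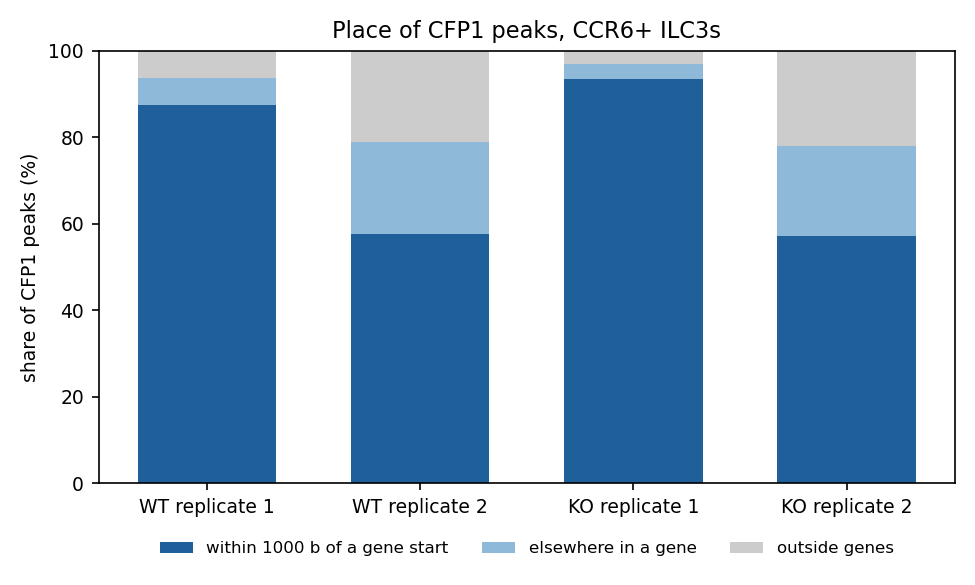
Stacked bars give, for each CFP1 list of CCR6+ ILC3s, the percent of peaks within 1000 b of a protein-coding gene start, elsewhere in such a gene, and outside these genes. The share at starts is 87.4 and 93.4% in the replicate 1 lists and 57.7 and 57.2% in the replicate 2 lists.

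Regions away from starts were mostly those of replicate 2. When peaks of the 4 lists were merged into 9282 regions, 3602 held a peak of WT replicate 2 alone and 28.9% of these were at a start, against 89.2% of the 1138 regions of WT replicate 1 alone. Both WT lists and neither KO list met at 2414 regions, 86.6% at starts, and all 4 lists met at 428, 94.9% at starts. Both replicate 2 lists and no replicate 1 list met at 323 regions, 11.8% at starts, against 61 regions for the reverse. Of the 535 peaks of KO replicate 2 away from starts, 85.6% overlapped a peak of WT replicate 2, 30.5% one of WT replicate 1 and 5.4% one of KO replicate 1. Replicate 2 lists of other subsets held them too: 85.2% overlapped a peak of KO DN replicate 2 and 79.1% one of KO NKp46+ replicate 2.

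Single peaks away from starts could rank high. One at chr3:88177653-88178177, outside protein-coding genes, was at place 5 in WT replicate 1, 24 in WT replicate 2 and 2 in KO replicate 1, and it was called in all 4 lists. A peak inside Zbtb20, a BTB zinc finger repressor, was at place 23 in KO replicate 1 and 4 in KO replicate 2 (chr16:42875056-42875808) and was called in all 4 lists. A peak inside Mmadhc, a gene of vitamin B12 metabolism, was at place 21 in WT replicate 1 and 20 in WT replicate 2 (chr2:50296188-50296759) and was called in neither KO list.

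CFP1 peaks at gene starts lay on H3K4me3 in both genotypes. Of all CFP1 peaks, 98.4 and 80.9% in WT and 98.9 and 83.5% in KO overlapped an H3K4me3 peak of the same subset and genotype, 1.55 points higher in KO (SE 11.7; exact permutation p = 0.667). Within replicate 1 the share was 0.44 points higher in KO and within replicate 2 it was 2.66 points higher. The sign turned to −0.48 points among peaks of at least 5-fold enrichment, −6.68 at equal list length and −18.7 when 50% of each peak had to be shared. It was −7.22 without WT replicate 2 and −6.12 without KO replicate 1. Those omissions leave the replicates unbalanced between genotypes, and the share followed the replicate number, so they cannot show a genotype difference. At starts the shares were 99.9, 99.0, 100 and 99.4% in WT replicates 1 and 2 and KO replicates 1 and 2. Away from starts they were 87.9, 56.1, 82.6 and 62.2%.

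H3K4me3, profiled in libraries of its own, was still called in KO at nearly all genes with CFP1 in WT only. Of the 2413 genes with CFP1 in both WT and neither KO list, 2407 (99.8%) had an H3K4me3 peak in all 4 CCR6+ H3K4me3 libraries. The share was 100% at the 492 genes with CFP1 in all 4 lists. It was 85.7% (3790 of 4423) at genes with H3K4me3 in both WT lists and no CFP1, where KO replicate 1 had it at 85.7% and KO replicate 2 at 99.2%. At the 2413 genes, H3K4me3 peaks had median widths of 1251 b in WT replicate 1, 1444 b in WT replicate 2, 1008 b in KO replicate 1 and 1427 b in KO replicate 2. The log2 ratio of KO to WT width was −0.31 in replicate 1 and −0.02 in replicate 2, and at genes with CFP1 in all 4 lists it was −0.24 and −0.04. At 4423 genes with H3K4me3 in both WT lists and CFP1 in no CCR6+ list it was −0.49 and 0.05, so the narrower H3K4me3 peaks of KO replicate 1 were seen with and without CFP1. H3K4me3 lists held 15284 and 14926 peaks in WT and 11794 and 18032 in KO, and KO replicate 1 was the lowest.

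CpG content was higher at starts with CFP1 than at other starts. Per 300 b promoter sequence, using the CpG-richest annotated start of a gene, the median was 26 CpG at genes with CFP1 in both WT and neither KO list (2001 of 2413 had a sequence), 27 with 1 KO list and 26 with all 4 lists. With 1 WT list and neither KO list the median was 23, with H3K4me3 in both WT lists but no CFP1 it was 20, and with neither mark in WT it was 4, against 15 over every gene. Few CpG did not preclude a peak: 55 genes of the first pattern had under 10 CpG (2.75%), against 16.1% of H3K4me3 genes without CFP1.

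Among genes with H3K4me3 in both WT lists, CFP1 in both WT lists was called at 6.82% of those with 0 to 4 CpG, 26.0% with 10 to 14, 38.6% with 20 to 24 and 55.7% with 35 to 39. At 40 or more CpG it was 47.4%. Of genes with CFP1 in both WT lists, the share also called in at least 1 KO list was 32.4% at 5 to 9 CpG, 34.6% at 10 to 14, 42.9% at 20 to 24, 46.5% at 25 to 29 and 42.3% at 35 to 39. At 0 to 4 CpG it was 66.7%, of 15 genes.

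**Figure D5:**
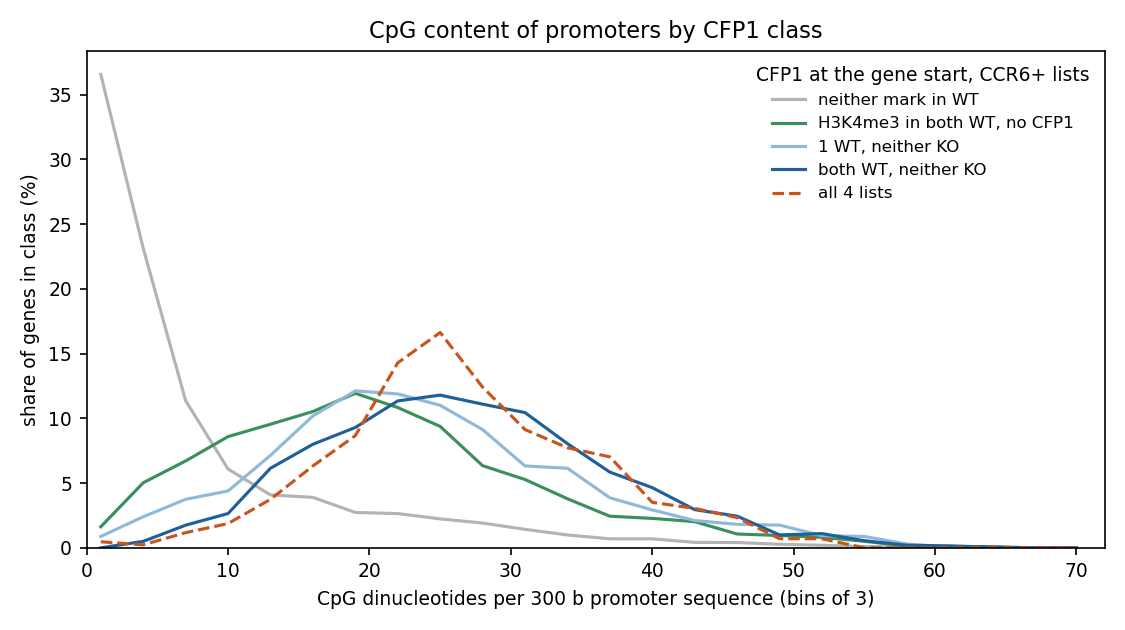
Lines give, for classes of genes by CFP1 in the CCR6+ lists, the percent of genes (y axis) with a given number of CpG dinucleotides in the 300 b promoter sequence (x axis, bins of 3). The class with CFP1 in both WT and neither KO list and the class in all 4 lists both centre on 26 CpG, while H3K4me3 genes without CFP1 centre on 20 and genes with neither mark on 4.

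Short motifs were counted on either strand of the same sequences, as a description of their letters. The GC box GGGCGG, bound by SP and KLF factors, was in 73.2% of promoters with CFP1 in both WT and neither KO list, 81.0% of those in all 4 lists, 64.8% of H3K4me3 promoters without CFP1 and 48.7% of all promoters. CCAAT was in 35.7, 50.8, 36.6 and 38.7% of the same classes. The ETS motif CCGGAAG was in 24.3, 18.3, 17.9 and 12.4%, and TATAAA was in 4.95, 5.39, 6.51 and 13.0%. The GC box can overlap other CG-containing motifs and follows CpG content, and no test was made between classes.

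Ubxn2a led the genes with CFP1 in both WT and neither KO list. This gene, a UBX-domain cofactor of the p97 ATPase, had peaks at place 12 (chr12:4907231-4907800, 570 b) and place 10 in WT replicates 1 and 2. Mrps28, a mitochondrial ribosomal protein, was at places 2 and 26, and Casc3, a core protein of the exon junction complex, at places 7 and 62. Zfp868, the zinc finger gene shown above, was at places 38 and 76. Slc25a46, a mitochondrial outer membrane protein, was at 118 and 51, and Lactb, a mitochondrial serine protease-like protein, at 102 and 106. The others by the same rule were Agbl3, a tubulin carboxypeptidase, Nipa2, a magnesium transporter, Kpna3, an importin alpha, and Kdm4a, a histone demethylase, at places between 10 and 358. All 10 had H3K4me3 in all 4 libraries. Lists of the other subsets held CFP1 at these starts in KO: 4 of 4 such KO lists had it at Casc3, 3 at Ubxn2a and 0 at Agbl3 and Nipa2.

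Genes with CFP1 in all 4 lists were led by H2az2, which encodes an H2A.Z histone variant. Its peaks stood at places 1 and 3 in WT and 1 and 62 in KO, with widths of 641, 714, 643 and 414 b. Azi2, an adaptor of the kinase TBK1, shared its peak with its neighbour Zcwpw2, at places 45, 4, 92 and 2. Camta1, a calmodulin-binding transcription activator, was at places 328, 2, 30 and 12, and Sp1, which binds GC boxes, at 104, 315, 23 and 45. Zfp869, shown above, was at 33, 138, 33 and 97. Sf1, which binds the intron branch point, Slc39a10, a zinc importer, Immt, a subunit of the MICOS complex of mitochondrial cristae, and Tbl2 completed the 10, and each had CFP1 in all 8 lists of the other subsets.

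Of the 22 genes called only in KO replicate 1, the highest was Nars2, a mitochondrial asparaginyl-tRNA synthetase, at place 211 of 1312 with a peak of 375 b, followed by Mib2, a ubiquitin ligase, at place 253 and Ift52, a protein of intraflagellar transport, at place 389. Ube2cbp, Kat14 with its neighbour Pet117, Pcgf1, Nagk, Ndufb2 and Rbsn were at places 504 to 870. Of these 10 genes, the WT lists of the other subsets had CFP1 at Ift52 in 4 of 4 and at Nars2 and Ndufb2 in 0 of 4.

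The widest WT peaks were not the highest ranked. At Klf13, a Krüppel-like repressor, the peak measured 2243 and 2389 b in WT (places 2304 and 2396) and 321 and 984 b in KO. Nek8 and Tlcd1 shared peaks of 2141 and 2122 b in WT and 787 b in KO replicate 2. At equal list length only that KO peak was left, so the pattern at these 2 genes turned round. Ing2, whose PHD finger reads H3K4me3, had 1165 and 2434 b in WT and 740 and 637 b in KO.

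Gene lists were read against the background above, in which 11.2% of all genes, and 58.9% of those with CFP1 in both WT lists, had CFP1 in both WT and neither KO list. Over all lists 86 entries showed that pattern. Its share was 50.0% of the quiescence list, 47.1% of the SET1 and MLL list, 38.5% of cytosolic ribosomal protein genes, 35.0% of GATOR and mTORC1 genes, 33.3% of KLF and of DNA repair genes and 31.8% of oxidative phosphorylation genes. Shares near the background of all genes were 15.0% for ILC3 transcription factors and for splicing factors, 14.3% for CXXC and DNA methylation genes and 11.1% for m6A enzymes. All these shares are of every list member, so their background over all genes is 11.2%. That is low for lists rich in H3K4me3, since all 2413 pattern genes had H3K4me3 in both WT lists, as did 10802 of 21631 genes. Among such genes with a promoter sequence, the pattern's share ran from 2.27% at 0 to 4 CpG to 22.1% at 20 to 24 and 32.2% at 35 to 39. H3K4me3 was in both WT lists at 19 of 20 splicing factors and 18 of 20 ILC3 transcription factors. Shares against H3K4me3 genes alone were not tested. The 58.9% applies only to members with CFP1 in both WT lists. By neither, 1 and both KO lists, such members numbered 6, 1 and 0 for quiescence and 10, 4 and 1 for cytosolic ribosomal protein genes. They numbered 4, 1 and 4 for KLF and 3, 3 and 4 for splicing factor genes. Entries with the pattern numbered 131 without WT replicate 1, where dropping a list can only keep or raise the number. They numbered 5 at equal list length, so the list counts below rest on the full lists.

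Of 17 subunits of the SET1 and MLL methyltransferase complexes, 13 and 11 had CFP1 in the WT lists and 2 and 2 in the KO lists. Both WT and neither KO list had it at 8: the catalytic subunits Setd1a, Setd1b, Kmt2a and Kmt2b and the shared or targeting subunits Wdr5, Rbbp5, Wdr82 and Hcfc1. Wdr82, which ties SET1 to RNA polymerase II, was at places 646 and 1552. Kmt2c kept a peak in KO replicate 1 and Kmt2d in KO replicate 2, and Kdm6a, the H3K27 demethylase of MLL3/4 complexes, had one in all 4 lists at places 2492, 2789, 792 and 466. The 5 H3K4 demethylases went differently in number: 0 had the pattern, Kdm5a and Kdm1b had CFP1 in all 4 lists and Kdm5c in 3, and that difference was not tested. Of 14 CXXC-domain and DNA methylation genes, Kdm2a and Fbxl19, both with CXXC fingers, had the pattern, 7 had CFP1 in 1 WT list and 0 in any KO list.

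Krüppel-like factors split. Klf2, Klf4, Klf6 and Klf9 had CFP1 in both WT and neither KO list, Klf7, Klf10, Klf11 and Klf13 in all 4, of 12 in the list. Klf4 peaks were 536 and 688 b at places 2302 and 3735, and Klf7 was at places 672 and 2450 in WT and 577 and 488 in KO. Of 12 genes of quiescence and FOXO signalling, 6 had the pattern and 0 had CFP1 in all 4 lists. Tsc1, which restrains mTORC1, was at places 1044 and 112, Cdkn1b, the cell cycle inhibitor p27, at 1014 and 1667, and Btg1, an antiproliferative factor, at 3427 and 4277. Foxo1 was at 4997 and 7872, near the foot of both WT lists.

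Of 20 ILC3 transcription factors, 12 had CFP1 in at least 1 list, against 29.7% of all genes, 11 of them in WT replicate 2 and 6 in WT replicate 1, and 3 had the pattern: Cbfb, the partner of RUNX proteins, Arnt, the partner of the aryl hydrocarbon receptor, and Nfil3. Maf had CFP1 at places 2638 and 314 in WT and 56 in KO replicate 2, and Zfp36l2 was likewise found in both WT lists and KO replicate 2. At the start, Gata3, Id2, Tox, Ahr, Runx1 and Runx3 had a peak in WT replicate 2 alone and Ikzf1 in WT replicate 1 alone. Elsewhere in the gene, Runx1 and Runx3 had a peak in KO replicate 2, and Runx3 also in WT replicate 1. Of 20 ILC3 cytokines and receptors, 7 had CFP1 in at least 1 list and Il10rb alone had the pattern. H3K4me3 was called in both WT lists at 17 of the 20, and of these 17 it was called in KO replicate 1 at 9 (52.9%) and in KO replicate 2 at 15 (88.2%). Over every gene with H3K4me3 in both WT lists the shares were 93.5% and 99.6%, and KO replicate 1 was the shortest H3K4me3 list. Lta, a lymphotoxin subunit, had CFP1 at places 3723 and 837 in WT and 75 in KO replicate 2, and Ifngr1 at 848, 1807 and 107. Il22 and Il17a had neither CFP1 nor H3K4me3 in any of the 4 libraries.

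The sorted identity was checked on H3K4me3, since no CFP1 peak was called at most marker starts. Over all genes 49.9% had H3K4me3 in both WT lists and 47.2% in both KO lists. Of 14 CCR6+ ILC3 markers 10 had it in both WT lists and 7 in both KO lists, and of those 10, KO replicate 1 had 7 and KO replicate 2 had 8. Ccr6 itself had it at the start in both WT and 0 KO lists and in KO replicate 2 elsewhere in the gene. Cxcr5 had it in 3 lists, and Cd4, Nrp1 and Cd74 in all 4. For 15 NKp46+ and type 1 genes the counts were 7 and 5. Tbx21, Ifng, Il12rb2, Cxcr3 and Fasl were called in all 4 lists, and Ncr1, which encodes NKp46, in WT replicate 2 alone. For 12 T cell genes they were 9 and 4, and of those 9 KO replicate 2 had 8, with Cd3e and Cd247 in all 4 lists and Cd5 in none. B cell genes gave 2 and 1 of 10, with Cd79b in all 4 lists and Blk in both WT lists and KO replicate 2. Ebf1 and Pou2af1 were called in KO replicate 2 alone, and Cd79a, Pax5 and the rest were at 0 in all lists. Myeloid genes gave 2 and 2 of 12, epithelial genes 1 and 1 of 12 (Epcam, with Krt8 and Vil1 in none) and ILC2 genes 2 and 2 of 10. In WT replicates 1 and 2 and KO replicates 1 and 2, myeloid genes numbered 3, 3, 2 and 5 and epithelial genes 2, 2, 1 and 4. Lyz2, Spi1, Krt18 and Lgr5 were called at the start in KO replicate 2 alone, the longest H3K4me3 list, and Adgre1 and Elf3 in WT replicate 1 alone. The ILC2 genes were not the same ones: Il17rb was in all 4 lists, Arg1 in both WT lists alone and Il4 in both KO lists alone. At the starts of all these NKp46+, T cell, B cell, myeloid, epithelial and ILC2 genes, CFP1 was called at Cebpb alone, in both WT lists. Elsewhere in the gene, Cd3d had a CFP1 peak in all 4 lists and Cd247 and Pax5 in both WT lists. Zap70, Blk and Klrg1 had one there in WT replicate 2 alone. The part of other cells in the CFP1 difference was not tested.

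Groups of genes that most cells express were read in the same way. The pattern was found at 10 of 26 cytosolic ribosomal protein genes, led by Rpl30 at places 868 and 750, with Rps19 in all 4 lists. It was found at 7 of 22 genes of oxidative phosphorylation, among them Ndufa2, Ndufb5, Cox5a and Cox4i1, with 0 in all 4 lists. Of 22 mitochondrial ribosomal protein genes 4 had it, Mrps30, Mrps16, Mrpl1 and Mrpl11. GATOR and mTORC1 genes had it at 7 of 20, led by Seh1l at places 80 and 580 and Mios at 465 and 1221, both subunits of GATOR2, which relays amino acid supply to mTORC1. DNA repair genes had it at 8 of 24, led by Nbn at places 268 and 172, and Brca1 was in all 4 lists at 415, 620, 535 and 969.

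Cell cycle genes had the pattern at 6 of 24, among them Cdkn2c, Rbl2, E2f1 and Cdk6, and Mcm7, a subunit of the replicative helicase, was in all 4 lists. Of 18 BCL2 family and apoptosis genes, 3 had it, Bad and Bcl2l11 among them, while Bcl2l1, which encodes BCL-XL, and Cycs, cytochrome c, were in all 4. Among 14 clock genes Per2, Clock, Cry2 and Dbp had it and Nr1d2 and Tef were in all 4. Among 12 AP-1 genes Atf3, Mafk and Fos had it and Jun and Maff were in all 4. Splicing factors had it at 3 of 20 (Srsf3, Snrpb and Sf3b1) and 4 were in all 4 lists, of which Hnrnpa1 stood at places 584, 408, 186 and 175. Of 9 m6A enzymes Alkbh5 had it and 3 (Wtap, Ythdf2 and Ythdf3) kept a peak in KO replicate 1. KRAB zinc finger genes had it at 4 of 20, Zfp689, Zfp180, Zfp568 and Zfp324, and 0 were in a KO list. Of 16 developmental genes chosen as silent, Hoxa13 had a peak in WT replicate 2 and the rest in no list.

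The CCR6+ subset was set beside the other subsets, whose KO replicates went apart. The log2 ratio of KO to WT peak number was −1.99 and −2.68 in CCR6+ cells, −2.73 and −0.18 in NKp46+ cells and −2.02 and 0.21 in DN cells. The mean log2 ratio of CCR6+ cells less that of the other subsets was −1.15 (exact permutation p = 0.4 over 15 arrangements of 2 pairs against 4, of which the smallest possible is 0.133). It was −0.69 without DN replicate 2. In replicate 1 all 3 subsets lay between −1.99 and −2.73, and CCR6+ cells were not the lowest. CCR6+ KO lists met 23.7 and 14.7% of the WT peaks of the same replicate number. In NKp46+ cells the shares were 13.8 and 63.7%, and in DN cells they were 23.0 and 76.9%. The mean difference of CCR6+ from the other subsets was −25.2 points (exact permutation p = 0.4).

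Most of the 2413 genes also had a CFP1 peak in the WT lists of the other subsets. CFP1 was called at 78.2 and 64.2% of them in NKp46+ WT, against 22.2 and 17.9% of all genes, and at 78.2 and 82.5% in DN WT, against 21.7 and 23.2%. In the NKp46+ KO lists it was called at 5.9 and 46.7%, against 3.38 and 14.3% of all genes. In the DN KO lists it was called at 14.4 and 76.9%, against 5.81 and 23.9%. Both WT and neither KO list held CFP1 at 465 of them (19.3%) in NKp46+ cells, against 3.83% of all genes, and at 209 (8.66%) in DN cells, against 1.79%. All these genes had been chosen for CFP1 in both CCR6+ WT lists. At the 492 genes found in all 4 CCR6+ lists, the NKp46+ KO lists had CFP1 at 56.3 and 98.6%, and the DN KO lists at 69.1 and 100%.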

How the data were processed

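In situ chromatin profiling with a Cxxc1 antibody was carried out on sorted ILC3s. Per the submitters' processing notes, reads were handled with fastp 0.19.7, Bowtie2 2.3.5.1, Picard, MACS2 2.2.7.1 and ChIPseeker 1.28.3 on mm10, with no order or settings stated there. A peak list per library was deposited by the authors, with a fold enrichment (a linear ratio) per peak. The deposited lists also hold a −log10 p-value and a −log10 q-value per peak. The lists give no read counts, so depth is unknown and no counting interval is given.

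Peaks on the 19 autosomes and X were used, with coordinates counted from 1. Gene starts came from RefSeq (GRCm38.p6). Of 21631 protein-coding genes, 17274 had a start and strand in the promoter table, and the other 4357 (20.1%) were searched at both annotated ends, so a gene whose used start differs from these was missed (Ash2l and Rora had H3K4me3 inside the gene in all 4 libraries but not at an end). Lists were compared by overlaps of at least 1 b. Values per library were compared by exact two-sided permutation tests. Counts of genes and regions carry no test. Python 3.11.15, NumPy 2.4.6, pandas 2.3.3 and SciPy 1.17.1 were used, and the pattern counting was tested on simulated lists.

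Named genes were Cxxc1, the 10 genes of highest mean rank with CFP1 in both WT and neither KO list and the 10 in all 4 lists, up to 10 found only in KO, the 5 with the widest WT peaks, and up to 4 and 3 per gene list by rank. Other listed genes are named where a whole count is spelled out. Predicted genes were passed over, and a few genes that the rule names are not reported here. The members and the gene lists were chosen with earlier results of these data known. Alternatives covered stricter thresholds, equal list lengths, overlap, window and gene-end rules, and leaving out each library.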

Additional observations from a re-analysis of the deposited data

How the results depend on the processing

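Of 177 alternative values of the main results, 8 changed sign and 13 moved by more than the limit. The limit was 1.5 times for counts of genes, 3 CpG for CpG content and 1 percentage point for H3K4me3 at WT-only genes. For overlaps it was the standard deviation over all pairs of a KO and a WT list. For log2 ratios and KO less WT differences direction alone was compared, and the other 156 passed. Equal lists of 1250 peaks moved the most. Genes with CFP1 in both WT and neither KO list then numbered 184 and the reverse 100, the share of KO peaks on WT peaks and of WT peaks on KO peaks was 40.0% each, listed genes with the WT pattern numbered 5, the KO less WT share at gene starts was −12.6 points and that on H3K4me3 −6.68 points. Peak number is fixed by that rule and has no value under it. With an overlap of 50% of each peak, KO peaks on WT peaks made 62.9%, WT peaks on KO peaks 12.8% and the H3K4me3 difference −18.7 points. At 5-fold enrichment or more the H3K4me3 difference was −0.48 points. H3K4me3 at genes with CFP1 in both WT and neither KO list was 98.4% with windows of 2000 b and 97.3% with both ends of every gene, an alternative chosen after seeing the data. Only the CFP1 windows changed in these alternatives. H3K4me3 was still read in the main windows of 1000 b, so these shares do not show a change in H3K4me3. With the summit inside the window, 1 gene had CFP1 in both KO and neither WT list. The cause was not tested.

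Leaving out each library in turn gave log2 ratios of −2.64 to −2.03 for peak number, −0.41 to −0.16 for median width and 2719 to 3531 genes with CFP1 in WT only. The reverse count was 0 to 22, the share at gene starts −15.4 to 20.9 points, the share on H3K4me3 −7.22 to 10.3 points, H3K4me3 at WT-only genes 96.9 to 99.8% and listed genes 101 to 131. Counts of genes in WT only, of the reverse and of listed genes can only stay or rise when a list is dropped, so their ranges do not test stability. The shares at gene starts and on H3K4me3 followed the replicate number. Their ranges and sign changes on leaving out a library cannot be told from unbalanced replicates. The ratio of CCR6+ against the other subsets was −1.67 to −0.69 with each pair left out. Single genes gave 1610 alternative values, of which 165 moved and 2 changed sign (Nek8 and Tlcd1, to −0.5 in WT less KO share of lists, at equal length).

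With the replicate number as a block, peak number gave the same log2 ratio of −2.33 and an exact sign-flip p = 0.5, the smallest that 2 pairs allow. Deviations of same-numbered libraries correlated at 0.0377 over gene-start calls, so the numbers were not taken to pair the samples. That check does not see peaks away from starts, whose share followed the replicate number in both genotypes, and the deposited lists of one number carry one date-like tag. With 2 libraries a group and no depth, an absent peak cannot be told from one below the caller's threshold.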
